A study of Mus musculus with 36 samples.

Results

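The 8 genes described here encode alpha 1 subunits of voltage-gated calcium channels and were taken by symbol from the 37315 genes of the count tables: Cacna1a, Cacna1b, Cacna1c, Cacna1d, Cacna1e, Cacna1g, Cacna1h and Cacna1i. All 8 had a row in the tables of all 6 strains and all 8 passed the filter on low counts, with 326 to 19152 counts per gene and library. RNA was sequenced from the whole hippocampus, both sides together, of 36 mice from 6 inbred strains, PWD/Ph, DBA/2J, DBA/1J, C57BL/6J, A/J and 129S1/SvImJ, with 3 females and 3 males per strain and 1 animal per library. Age was 62 days in PWD/Ph and DBA/2J of either sex. In DBA/1J, A/J and 129S1/SvImJ females were taken at 63 and males at 62 days, and in C57BL/6J females at 64 and males at 63 days, so that the sexes differ by 1 day in 4 strains and age cannot be told apart from sex there. Only PWD/Ph animals lived alone in their cages, so housing cannot be told apart from strain for PWD/Ph.

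The alpha 1 subunit forms the pore and the voltage sensor of a calcium channel and sets its current type. Cacna1a carries the P/Q-type current and Cacna1b the N-type current, which together admit the calcium that triggers transmitter release at fast synapses. Cacna1c and Cacna1d carry L-type currents that link firing to gene expression, and Cacna1d channels open at more negative voltages than Cacna1c channels. Cacna1e carries the R-type current, found in hippocampal dendrites, spines and terminals. Cacna1g, Cacna1h and Cacna1i carry the low-voltage T-type currents that support burst firing. The L-type gene Cacna1f, best known from the retina, did not pass the filter on low counts, and the muscle gene Cacna1s passed it with a mean of 0.241 CPM (counts divided by the TMM-adjusted library total) and was not called among strains (edgeR adjusted p = 0.067).

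Total counts per library ran from 6493512 to 35232515, with a median of 21144604, and 3 DBA/2J libraries were the shallowest. Xist had at least 6738 counts in every female and at most 209 in every male, and the Y-linked genes Ddx3y and Eif2s3y had at most 6 counts in every female and at least 404 in every male, so every library matched its labelled sex. The tissue label was checked with marker genes. All marker sums are CPM of the raw library total, without the TMM factors, which ran from 0.894 to 1.09. Dentate granule markers summed to 185 to 326 CPM, CA1 markers to 325 to 648 CPM and pan-neuronal markers to 5306 to 7000 CPM. Markers of tissue outside the hippocampus were present in varying amounts. Choroid plexus markers summed to 27.1 to 3255 CPM, thalamus markers to 125 to 241 CPM and striatum markers to 68.7 to 247 CPM, the highest in PWD/Ph female replicate 1. Pituitary markers summed to 0.256 to 77.7 CPM, the highest in C57BL/6J male replicate 2. In whole tissue, fewer cells of a type and less RNA per cell cannot be told apart.

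Levels of different genes were compared on the authors' deposited FPKM, which divide by transcript length. Over the 36 libraries Cacna1a was the highest of the 8 at 27.5 ± 5.07 FPKM (SD, n = 36 libraries), followed by Cacna1e at 22 ± 5.08 FPKM. Cacna1h averaged 17.6 ± 5.68 FPKM, Cacna1b 15.3 ± 3.24 FPKM and Cacna1g 12.7 ± 2.97 FPKM. The L-type pair was lower, with Cacna1c at 7.27 ± 1.21 FPKM and Cacna1d at 5.37 ± 0.607 FPKM, and Cacna1i averaged 7.19 ± 1.55 FPKM. Cacna1d had the lowest mean FPKM of the 8 in all 6 strains, and Cacna1a the highest in all strains but PWD/Ph, where Cacna1e averaged 28.6 ± 2.49 FPKM and Cacna1a 25.4 ± 3.89 FPKM (SD, n = 6 libraries).

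On the deposited FPKM, which carry no GC correction of the kind described below, the make-up of the family differed between strains most in its R-type and T-type parts. Cacna1e made up 27.2% ± 3.93 of the summed FPKM of the 8 genes in PWD/Ph, 22.6% ± 1.38 in DBA/2J, 20.3% ± 1.20 in C57BL/6J, 17.6% ± 1.44 in DBA/1J, 15.4% ± 0.964 in A/J and 13.3% ± 2.51 in 129S1/SvImJ (SD, n = 6 libraries each). The 3 T-type genes together made up 26.5% ± 3.51 in PWD/Ph and 29.7% ± 1.59 in DBA/2J, against 36.1% ± 2.70 in A/J and 37.0% ± 1.93 in 129S1/SvImJ. In PWD/Ph the R-type share ranged from 21.4% to 32.2% and in 129S1/SvImJ from 10.3% to 17.0%, without overlap. With GC and length offsets on the counts, the T-type genes were not lower in PWD/Ph than in the mean of the other 5 strains: Cacna1h stood at -0.08 (log2, not called), and Cacna1g at 0.21 and Cacna1i at 0.47 were called higher. The shares of the other types varied less. The L-type share averaged 9.50% in 129S1/SvImJ (8.61% to 10.7%), against 12.4% in C57BL/6J (12.1% to 12.8%), without overlap. Strain means of the N-type share lay between 11.1% in PWD/Ph and 14.6% in 129S1/SvImJ. Those of the P/Q-type share lay between 22.2% in C57BL/6J and 25.6% in 129S1/SvImJ.

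**Figure D1:**
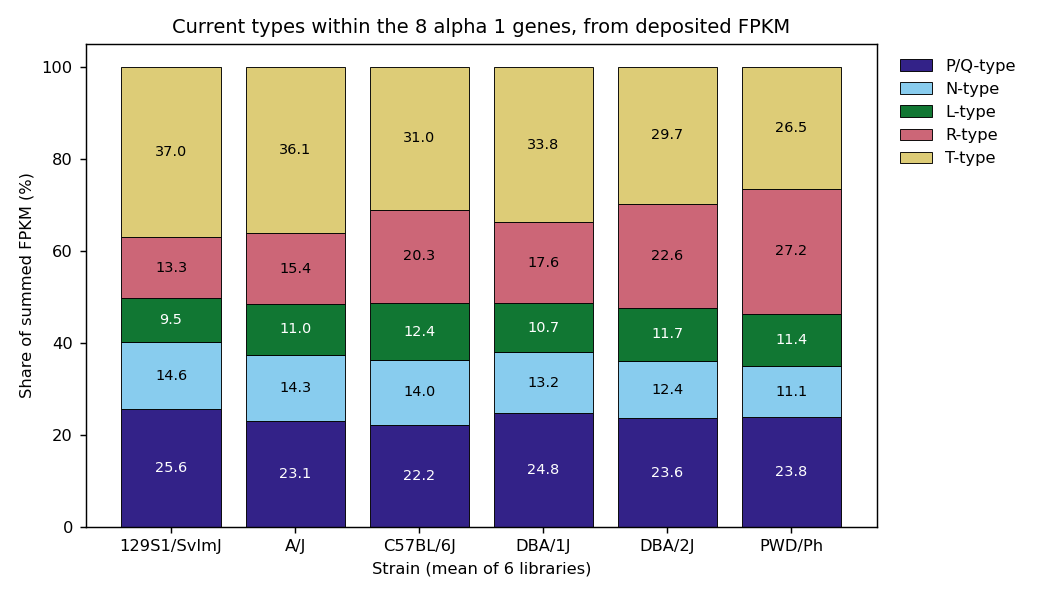
Stacked bars give the share of each current type in the summed deposited FPKM of the 8 alpha 1 genes (y axis, percent) for each strain (x axis, mean of 6 libraries). The R-type share is 27.2% in PWD/Ph and 13.3% in 129S1/SvImJ, and the T-type share is 26.5% in PWD/Ph and 37.0% in 129S1/SvImJ, both without GC and length offsets.

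Every alpha 1 gene differed among the strains. All 8 passed the F test among the 6 strains (edgeR quasi-likelihood, adjusted p at or under 0.00468), where 92.0% of the 19702 genes tested were called, so the count is near the background. Without the C57BL/6J libraries Cacna1b was no longer called (adjusted p = 0.0518), nor, without the DBA/1J libraries, were Cacna1c (0.325) and Cacna1i (0.229). The size of the effect set the genes apart more than the call. The highest strain mean was 2.1 times the lowest for Cacna1e and 1.84 times for Cacna1h. It was 1.45 times for Cacna1d, 1.39 for Cacna1a, 1.38 for Cacna1g, 1.30 for Cacna1c, 1.30 for Cacna1i and 1.22 for Cacna1b. The median over all tested genes was 1.78. Among the 5140 genes with a mean of at least 40 CPM, where all 8 members lie, the median was 1.49. Within that group, 89.6% of genes had a smaller range than Cacna1e and 79.2% a smaller range than Cacna1h, but 12.9% a smaller range than Cacna1b. These ranges are on CPM. On the deposited FPKM the strain means of Cacna1b ran wider, at 18.3 FPKM in 129S1/SvImJ, against 11.9 FPKM in PWD/Ph, and those of Cacna1d narrower, at 5.82 FPKM in DBA/2J, against 4.70 FPKM in 129S1/SvImJ. The median of all genes on the deposited FPKM also shifted, up in 129S1/SvImJ and A/J and down in DBA/2J and PWD/Ph. Its values are given in the closing section.

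**Figure D2:**
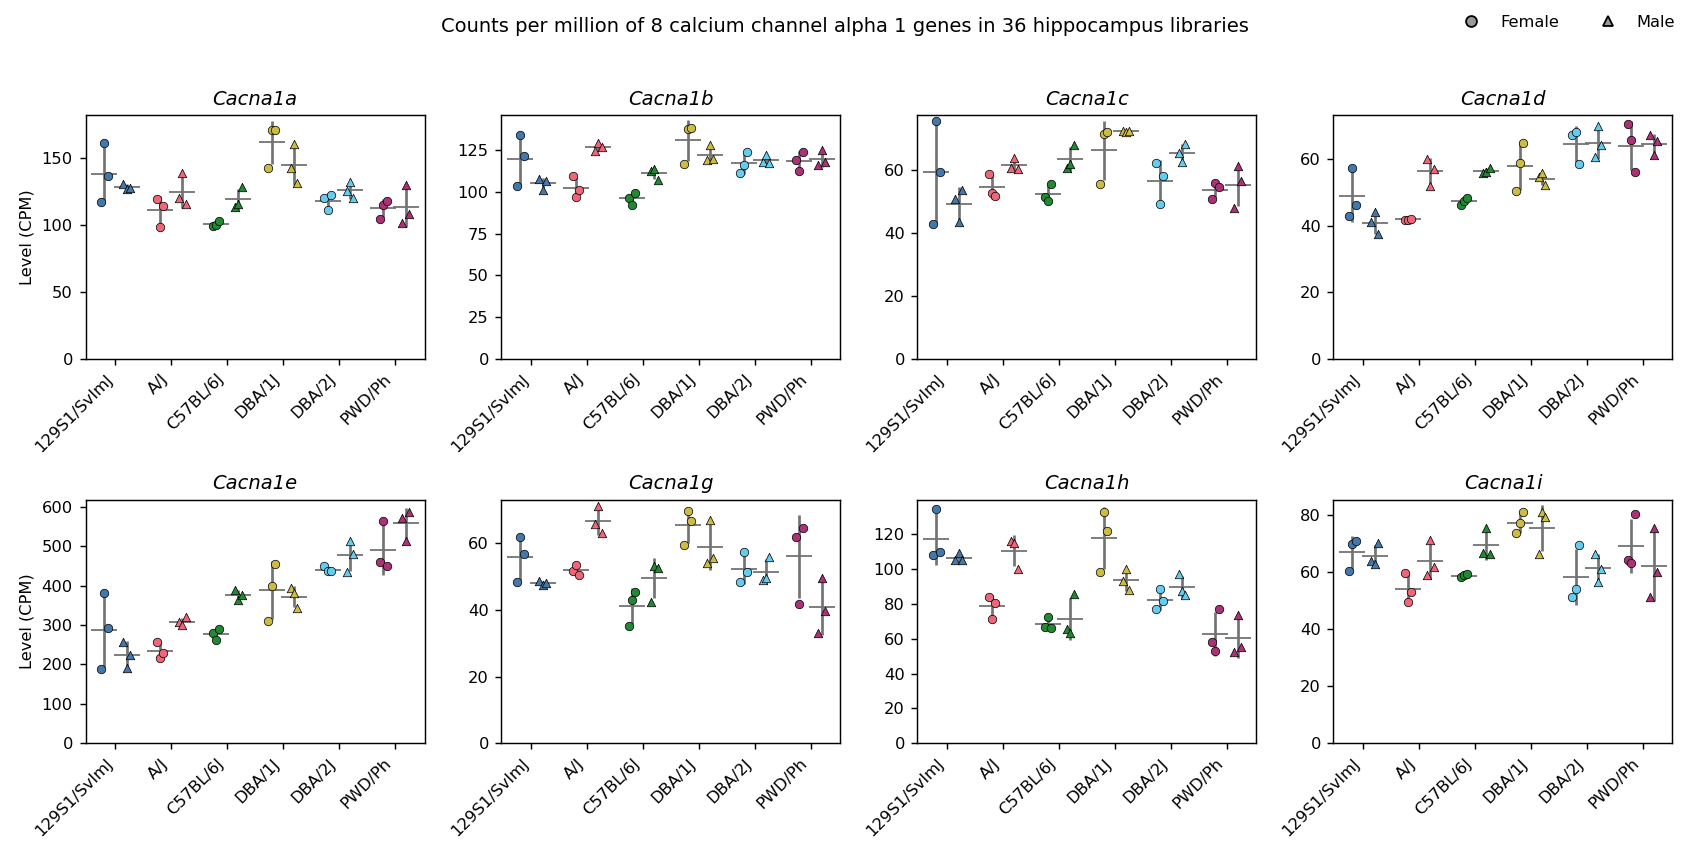
Each panel shows 1 alpha 1 gene, with the level in CPM (y axis, from 0) in each library by strain (x axis), circles for females and triangles for males, and a horizontal bar and vertical line for the mean and SD of the 3 libraries. Cacna1e climbs across the strains as drawn, up to 588 CPM in PWD/Ph, and Cacna1h is lowest in PWD/Ph at 52.5 to 76.9 CPM.

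Cacna1e, the R-type gene, was highest in PWD/Ph and lowest in 129S1/SvImJ. PWD/Ph libraries had 460.0, 565 and 450.4 CPM in females and 573, 514 and 588 CPM in males. DBA/2J libraries had 449.5, 437 and 436 CPM in females and 435, 514 and 482 CPM in males. DBA/1J libraries had 310.1, 399 and 456 CPM in females and 393, 381 and 343 CPM in males. The PWD/Ph and DBA/2J libraries overlapped each other, and 1 DBA/1J female reached into their range. C57BL/6J libraries had 279.8, 261 and 289.5 CPM in females and 389.6, 363 and 377 CPM in males. A/J libraries had 256, 216 and 230.3 CPM in females and 307, 300.3 and 320.0 CPM in males. 129S1/SvImJ libraries had 189, 380.5 and 293 CPM in females and 258, 190.5 and 225 CPM in males. No library of these 3 strains reached the lowest PWD/Ph or DBA/2J library, and 129S1/SvImJ female replicate 2 was the highest of its strain.

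Against the mean of the other 5 strains, Cacna1e was higher in PWD/Ph (log2 fold change 0.67 ± 0.08 SE, adjusted p = 5.9e-09) and DBA/2J (0.44 ± 0.08, adjusted p = 3.26e-05). It was lower in A/J (-0.48 ± 0.08, adjusted p = 4.03e-05) and 129S1/SvImJ (-0.58 ± 0.09, adjusted p = 6.05e-07). These 4 calls held in each of the 10 alternatives run for them and without each of the 36 libraries. Of neighbours in the order of strain means, DBA/2J stood above DBA/1J (log2 fold change 0.27, adjusted p = 0.031), a call that was lost with the GC and length offsets described below (adjusted p = 0.13). PWD/Ph and DBA/2J did not differ beyond the threshold (0.19, adjusted p = 0.14), nor did A/J and 129S1/SvImJ (0.08, adjusted p = 0.54).

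Sums of cell type and region markers were compared between PWD/Ph and 129S1/SvImJ. Oligodendrocyte markers summed to 1860 to 3067 CPM in PWD/Ph libraries, against 3613 to 6815 CPM in 129S1/SvImJ libraries, without overlap. Astrocyte markers summed to 5687 to 6577 CPM in PWD/Ph, against 3306 to 4522 CPM in 129S1/SvImJ. Microglia markers summed to 125 to 152 CPM in PWD/Ph, against 162 to 185 CPM in 129S1/SvImJ. CA1 markers summed to 325 to 561 CPM in PWD/Ph, against 567 to 648 CPM in 129S1/SvImJ. Whether these close CA1 sums stay apart with the TMM factors was not tested. Thalamus markers summed to 165 to 241 CPM in PWD/Ph, against 125 to 148 CPM in 129S1/SvImJ. The other marker sums, pan-neuronal markers included, overlapped between these strains. The strain F test called all 7 oligodendrocyte and all 6 astrocyte markers and 92.0% of all tested genes. None of the markers was at 0 in all libraries, and the part of any of these sums in the Cacna1e difference was not tested.

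The members also differ in base composition. The reference transcripts of Cacna1d and Cacna1e have a GC content of 49.6% and 48.3%, Cacna1c 50.3% and Cacna1b 52.9%, against 58.1% to 60.0% in Cacna1g, Cacna1a, Cacna1i and Cacna1h. The fit was repeated with offsets that remove each library's trend of counts on GC content and transcript length. With them Cacna1e kept 0.44 in PWD/Ph, 0.24 in DBA/2J, -0.40 in A/J and -0.20 in 129S1/SvImJ on the log2 scale, with adjusted p at or under 0.00201. Over the 8 genes and 6 strains, 24 of 48 differences were called with the offsets and 25 without them, 17 were called both ways, and 15 of these 17 had the same direction. Of the others, 8 were called only without the offsets and 7 only with them. The largest of these 7 was Cacna1i in PWD/Ph, at 0.47 with the offsets (adjusted p = 1.47e-09) and 0.02 without them (adjusted p = 0.824). The offsets also moved the calls over all genes, from 6835 to 7755 in C57BL/6J. With the offsets and a replicate block they moved from 13272 to 10435 in 129S1/SvImJ, 10530 to 7965 in DBA/1J and 13882 to 11934 in PWD/Ph. The share of all genes called over the 6 strains with the offsets is not given here. For differences from the mean of the other 5 strains, values with offsets are given below wherever they end a call or turn its sign.

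**Figure D3:**
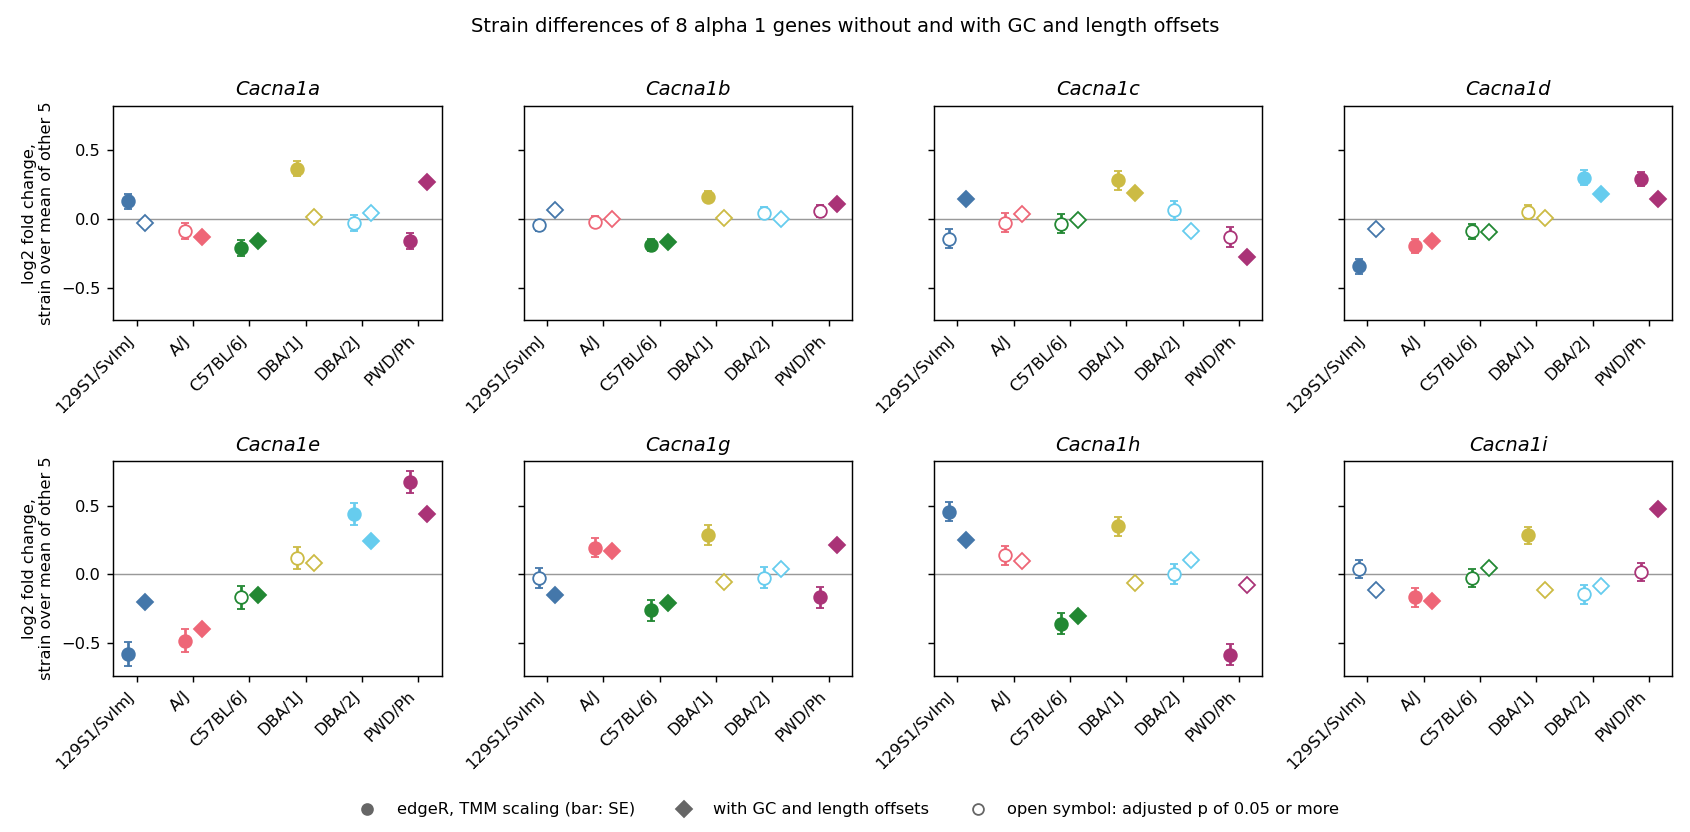
Each panel shows 1 alpha 1 gene, with the log2 fold change of each strain over the mean of the other 5 (y axis) by strain (x axis), circles with SE for the fit on TMM-scaled counts and diamonds for the fit with GC and length offsets, filled where the adjusted p is under 0.05. Cacna1e stays highest in PWD/Ph (0.44) with offsets, while its lowest value passes to A/J (-0.40, against -0.20 in 129S1/SvImJ), and the DBA/1J values of Cacna1a, Cacna1b, Cacna1g, Cacna1h and Cacna1i fall to between -0.12 and 0.01.

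Cacna1d, the lower-voltage L-type gene, had the same 2 strains at the top and the same 4 below as Cacna1e, with smaller steps and with DBA/2J and PWD/Ph in the other order. DBA/2J libraries had 67.2, 68.1 and 58.4 CPM in females and 60.5, 70.0 and 64.3 CPM in males. PWD/Ph libraries had 70.5, 65.7 and 56.0 CPM in females and 67.1, 61.2 and 65.3 CPM in males. 129S1/SvImJ libraries had 42.9, 57.3 and 46.0 CPM in females and 41.1, 44.0 and 37.5 CPM in males. The 129S1/SvImJ libraries lay below all DBA/2J libraries, and 129S1/SvImJ female replicate 2 was the one that reached into the PWD/Ph range. DBA/1J averaged 56.0 ± 5.13 CPM, C57BL/6J 51.8 ± 5.04 CPM and A/J 49.1 ± 8.34 CPM (SD, n = 6 libraries each).

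Cacna1d was higher than the mean of the other 5 strains in DBA/2J (log2 fold change 0.30 ± 0.05 SE, adjusted p = 2.44e-05) and PWD/Ph (0.29 ± 0.05, adjusted p = 1.17e-05). It was lower in A/J (-0.20 ± 0.05, adjusted p = 0.00395) and 129S1/SvImJ (-0.34 ± 0.05, adjusted p = 1.51e-06). With the GC and length offsets DBA/2J stood at 0.18, PWD/Ph at 0.14 and A/J at -0.16, all called, while 129S1/SvImJ fell to -0.07 (adjusted p = 0.207). The A/J call was also lost in the fits on FPKM (highest adjusted p over the alternatives 0.12), where the median of all genes shifted up in A/J. Chdh and Dcp1a overlap Cacna1d on the other strand, and whether counting used the strand is not stated in the labels, so their reads cannot be told apart from those of Cacna1d where they overlap.

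The group means of Cacna1d and Cacna1e correlated at r = 0.96 over the 12 groups of strain and sex, and their deviations from group means at r = 0.62 over the 36 libraries. Both r are on log2 CPM and describe points that share libraries, depth and base composition. Cacna1h ran the other way, with r = -0.46 against Cacna1e over the 12 group means and r = 0.13 over the deviations. Over all 28 pairs of members the median r was 0.53 over group means, with 25 pairs positive, and 0.51 over deviations, with 27 pairs positive.

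**Figure D4:**
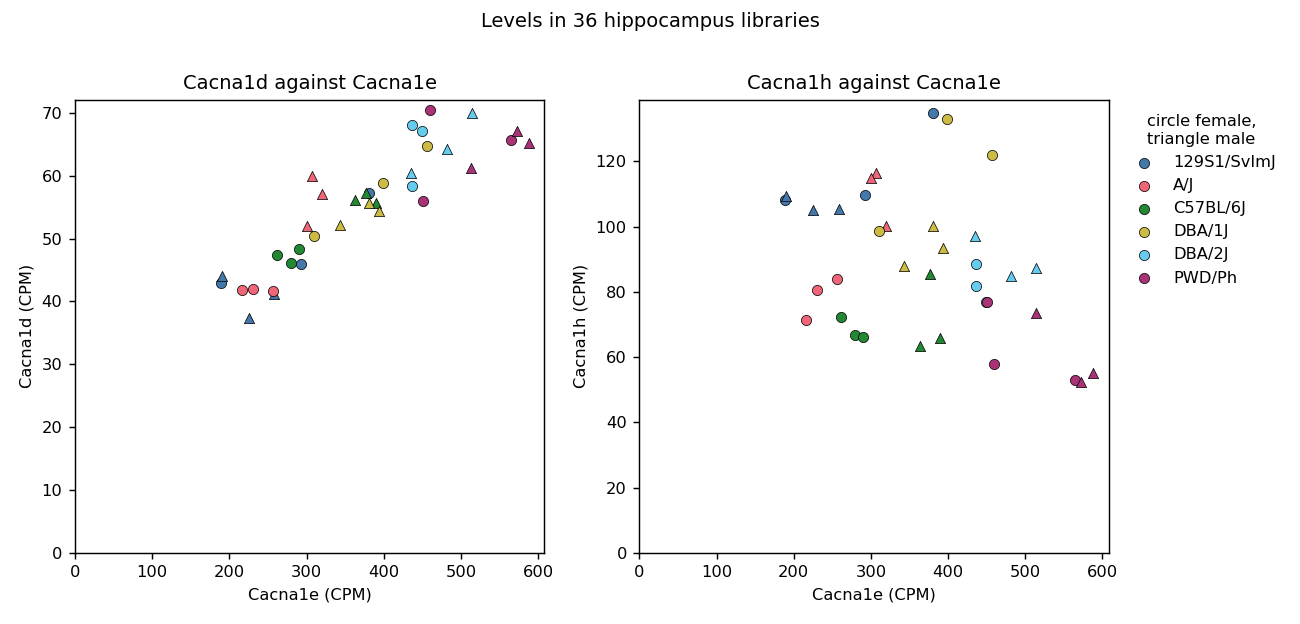
Each point is 1 of the 36 libraries, coloured by strain, circles for females and triangles for males, with Cacna1e (x axis, CPM) against Cacna1d (y axis of the left panel, CPM) and Cacna1h (y axis of the right panel, CPM). Cacna1d climbs with Cacna1e (r = 0.96 over 12 group means), while Cacna1h is lowest in PWD/Ph, where Cacna1e is highest.

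Because Cacna1d and Cacna1e ordered the strains alike, their promoter windows are shown here, from the RefSeq table of GRCm38.p6. Each runs from 250 bases before to 50 bases after a listed start, and all 3 lie on the minus strand. Capitals mark GC boxes (GGGCGG on either strand, overlapping matches counted). All 3 windows lie within the gene bounds of GENCODE, on chromosome 1 from 154390731 to 154884501 for Cacna1e and on chromosome 14 from 30039939 to 30491455 for Cacna1d.
Cacna1e chr1:154725871-154726170 (-): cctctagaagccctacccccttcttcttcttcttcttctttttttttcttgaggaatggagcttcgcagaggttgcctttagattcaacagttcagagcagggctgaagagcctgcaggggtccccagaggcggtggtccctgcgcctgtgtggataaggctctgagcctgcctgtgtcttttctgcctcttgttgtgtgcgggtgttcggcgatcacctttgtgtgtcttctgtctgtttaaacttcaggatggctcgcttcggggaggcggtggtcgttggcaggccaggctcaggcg
Cacna1d chr14:30353437-30353736 (-): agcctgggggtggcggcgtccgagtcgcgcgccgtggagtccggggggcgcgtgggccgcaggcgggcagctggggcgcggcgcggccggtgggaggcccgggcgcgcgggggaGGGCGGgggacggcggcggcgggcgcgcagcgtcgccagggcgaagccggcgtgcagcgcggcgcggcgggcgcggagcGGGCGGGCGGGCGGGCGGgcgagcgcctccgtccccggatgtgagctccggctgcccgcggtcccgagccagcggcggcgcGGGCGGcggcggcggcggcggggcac
Cacna1d chr14:30491107-30491406 (-): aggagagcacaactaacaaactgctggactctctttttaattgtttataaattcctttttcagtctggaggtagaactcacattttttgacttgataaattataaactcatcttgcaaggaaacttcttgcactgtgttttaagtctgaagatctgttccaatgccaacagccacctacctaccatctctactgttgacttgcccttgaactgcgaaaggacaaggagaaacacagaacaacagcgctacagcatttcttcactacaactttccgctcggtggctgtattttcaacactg
The first Cacna1d window is 87.3% GC and holds 6 GC boxes, the second is 40.3% GC and holds none, and the Cacna1e window is 55.3% GC and holds none. A GC box was found in 35.7% of the 32851 promoter windows of the table, whose median GC content is 52.7%. The second Cacna1d window holds 3 matches to TATAAA and 1 to CCAAT, found in 13.6% and 37.4% of all windows, and the Cacna1e window holds neither. The 3 windows thus differ from each other in base composition, and no match in the Cacna1e window says only that these letters are not in it. Entries were found for 5 of the 8 genes.

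Cacna1h, a T-type gene, was the member with the second largest range, with its top in 129S1/SvImJ and its bottom in PWD/Ph. 129S1/SvImJ libraries had 108, 135 and 109.6 CPM in females and 105, 109 and 105 CPM in males. DBA/1J libraries had 98.6, 133 and 122 CPM in females and 93.4, 100.1 and 87.9 CPM in males. A/J libraries had 83.9, 71.3 and 80.4 CPM in females and 116, 115 and 100.2 CPM in males. These 3 strains overlapped, and the A/J females lay below all other libraries among them. DBA/2J libraries had 77.0, 88.5 and 81.9 CPM in females and 97.2, 87.2 and 85.0 CPM in males. C57BL/6J libraries had 66.9, 72.3 and 66.1 CPM in females and 65.9, 63.5 and 85.4 CPM in males. PWD/Ph libraries had 57.9, 53.0 and 76.9 CPM in females and 52.5, 73.5 and 55.3 CPM in males. All PWD/Ph libraries lay below all 129S1/SvImJ and DBA/1J libraries.

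Against the mean of the other 5 strains Cacna1h was higher in 129S1/SvImJ (log2 fold change 0.46 ± 0.07 SE, adjusted p = 7.44e-07) and DBA/1J (0.35 ± 0.07, adjusted p = 9.43e-05), and lower in C57BL/6J (-0.36 ± 0.07, adjusted p = 0.00026) and PWD/Ph (-0.58 ± 0.08, adjusted p = 4.18e-08). With the GC and length offsets the 129S1/SvImJ value was 0.25 (adjusted p = 2.07e-05) and the C57BL/6J value -0.30 (adjusted p = 6.6e-06). The PWD/Ph value moved to -0.08 (adjusted p = 0.168) and the DBA/1J value turned to -0.07 (adjusted p = 0.251). Among neighbours in the order, DBA/2J stood above C57BL/6J (0.30, adjusted p = 0.012), and none of the other 4 steps passed the threshold. Tpsg1 overlaps the end of Cacna1h on the other strand, with a mean of 2.38 CPM.

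On CPM, DBA/1J had the highest mean of the release-linked genes Cacna1a and Cacna1b, the L-type gene Cacna1c and the T-type genes Cacna1g and Cacna1i. On the deposited FPKM, Cacna1b averaged 18.1 FPKM in DBA/1J and 18.3 FPKM in 129S1/SvImJ. For Cacna1a, DBA/1J libraries had 143, 171 and 171 CPM in females and 142, 160.5 and 131 CPM in males. The other 5 strains averaged from 110.0 ± 11.4 CPM in C57BL/6J to 133 ± 15.1 CPM in 129S1/SvImJ (SD, n = 6 libraries each). Counting Cacna1h, 6 of the 8 genes were called higher in DBA/1J and none lower, where 53.4% of all tested genes were called in either direction and 28.5% were called higher. The log2 fold changes were 0.36 for Cacna1a, 0.28 for Cacna1c, 0.16 for Cacna1b, 0.29 for Cacna1g, 0.28 for Cacna1i and 0.35 for Cacna1h, with SE from 0.04 to 0.07 and adjusted p at or under 0.00147. With the GC and length offsets Cacna1c kept 0.19 (adjusted p = 0.00363). The others fell to 0.01 for Cacna1a and 0.00 for Cacna1b, and to -0.06 for Cacna1g, -0.12 for Cacna1i and -0.07 for Cacna1h, none of them called.

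The other genes high in DBA/1J are given by library. Cacna1c had 55.6, 71.5 and 72.3 CPM in DBA/1J females and 72.5, 72.3 and 72.7 CPM in DBA/1J males. Cacna1i had 73.7, 77.1 and 80.9 CPM in DBA/1J females and 66.3, 80.9 and 79.4 CPM in DBA/1J males. Cacna1g had 59.4, 69.7 and 66.8 CPM in DBA/1J females and 54.2, 66.9 and 55.5 CPM in DBA/1J males. For Cacna1c, 5 of the 6 DBA/1J libraries lay close together and female replicate 1 below them. Dcp1b, with a mean of 13.9 CPM, overlaps Cacna1c on the other strand, and their reads cannot be told apart where they overlap. The other strains averaged 54.4 to 61.1 CPM for Cacna1c, 59.0 to 66.2 CPM for Cacna1i and 45.3 to 59.2 CPM for Cacna1g. Their libraries overlapped those of DBA/1J, except C57BL/6J for Cacna1g, where the highest library had 53.3 CPM. Among neighbours in the order of strain means DBA/1J stood above 129S1/SvImJ in Cacna1a (log2 fold change 0.20, adjusted p = 0.028) and Cacna1i (0.21, adjusted p = 0.048). Both calls were lost with the GC and length offsets (adjusted p = 0.704 and 0.98). No neighbours differed in Cacna1b, Cacna1c or Cacna1g.

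C57BL/6J stood at the other end for the same release-linked pair on CPM. On the deposited FPKM the lowest Cacna1b mean was in PWD/Ph, at 11.9 FPKM, against 13.6 FPKM in C57BL/6J. Cacna1a had 99.6, 100.004 and 103 CPM in C57BL/6J females and 114, 116 and 128 CPM in C57BL/6J males. Cacna1b had 96.5, 92.4 and 99.4 CPM in C57BL/6J females and 112, 114 and 107 CPM in C57BL/6J males, against 117, 138 and 138 CPM in DBA/1J females and 119, 128 and 119.6 CPM in DBA/1J males. No C57BL/6J library reached a DBA/1J library for either gene. In C57BL/6J 4 of the 8 genes were called lower and none higher, where 34.7% of all tested genes were called in either direction and 13.6% were called lower. They were Cacna1a (-0.21, adjusted p = 0.00433), Cacna1b (-0.19, adjusted p = 0.000717), Cacna1g (-0.26, adjusted p = 0.00675) and Cacna1h. These 4 calls held with the GC and length offsets, at -0.16, -0.17, -0.21 and -0.30, and the Cacna1b call was lost in the fits on FPKM (highest adjusted p over the alternatives 0.11).

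In the remaining strains the calls were split between directions. In PWD/Ph 5 of the 8 genes were called, where 70.5% of all tested genes were, with Cacna1e and Cacna1d higher and Cacna1h, Cacna1a and Cacna1g lower. The PWD/Ph values of Cacna1a (-0.16, adjusted p = 0.0141) and Cacna1g (-0.17, adjusted p = 0.0467) turned to 0.26 and 0.21 with the offsets, both called. The Cacna1g call was also lost in 20 of the 36 fits without 1 library, and the Cacna1a call in 3, those without PWD/Ph male replicate 1, male replicate 3 or female replicate 1. In 129S1/SvImJ 4 were called (67.4% of tested genes), where Cacna1a at 0.13 (adjusted p = 0.0432) turned to -0.03 with the offsets and was lost in 11 of the 36 fits without 1 library. In A/J 4 were called (33.2% of tested genes), 1 higher and 3 lower (18.9% and 14.4% of tested genes), with Cacna1g at 0.19 (adjusted p = 0.036) and Cacna1i at -0.17 (adjusted p = 0.0459) beside Cacna1d and Cacna1e. These Cacna1g and Cacna1i calls were lost in 11 and 12 of the 36 fits without 1 library, and Cacna1i turned to 0.06 and 0.05 in the fits on FPKM. The median of all genes in A/J also shifted up on FPKM, as given in the closing section. In DBA/2J 2 were called (49.5% of tested genes), both higher as described above, where 25.1% of tested genes were higher and 24.4% lower. Together 25 of the 48 differences were called, 13 higher and 12 lower, where 51.5% of all tested gene and strain pairs were called, 27.2% higher and 24.3% lower.

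Between pairs of strains the members gave 61 calls of 120, where 52.1% of all tested genes were called over the 15 pairs. Cacna1d, Cacna1e and Cacna1h passed in 11 of 15 pairs each, Cacna1a in 8, Cacna1g in 6, Cacna1b and Cacna1i in 5 each and Cacna1c in 4. In 129S1/SvImJ relative to DBA/1J 7 members were lower, all but Cacna1h, where 19.4% of all tested genes were lower. With the GC and length offsets Cacna1e alone of these 7 was called (-0.24, adjusted p = 0.0065), and Cacna1h was called higher (0.26, adjusted p = 0.000523). In DBA/1J relative to PWD/Ph 5 were higher and 2 lower, where 37.0% of all tested genes were higher and 33.5% lower. With the offsets Cacna1a, Cacna1g and Cacna1i turned to lower in DBA/1J (-0.21, -0.22 and -0.49, all called), Cacna1c stayed higher (0.39), Cacna1e stayed lower (-0.30), and Cacna1h and Cacna1d were not called. DBA/2J relative to PWD/Ph gave 1 call, Cacna1h, where 46.1% of tested genes were called, and with the offsets that call was lost (adjusted p = 0.0519). Over the 120 differences 56 were called with the offsets, 30 were called both ways, and 26 of these 30 had the same direction. The share of all tested genes called over the 15 pairs with the offsets is not given here.

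Averaged over the 6 strains, no alpha 1 gene was called between females and males (edgeR adjusted p from 0.363 to 0.857), where 47 genes or 0.239% of those tested were called. None of the 8 had an unadjusted p under 0.05 either, the lowest being 0.0573 in Cacna1e, and DESeq2 and limma on FPKM also called 0. The largest mean difference, female minus male, was -0.12 ± 0.06 (log2, SE) in Cacna1e, followed by -0.09 ± 0.05 in Cacna1c. Leaving out 129S1/SvImJ, where the female over male values of Cacna1e (0.36) and Cacna1c (0.26) were positive and not called, gave 2 calls, Cacna1e at -0.22 (adjusted p = 0.00924) and Cacna1c at -0.17 (adjusted p = 0.0202). Over all genes that fit called 792, against 47 in the main fit, so the 2 calls are not read as particular to the members.

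Within strains the sexes separated in A/J. Cacna1d had 41.7, 41.8 and 42.0 CPM in A/J females, against 59.9, 51.9 and 57.1 CPM in A/J males. Cacna1b had 109, 97.0 and 101 CPM in A/J females, against 125, 129 and 127 CPM in A/J males. Cacna1h had 83.9, 71.3 and 80.4 CPM in A/J females, against 116, 115 and 100.2 CPM in A/J males. The sexes did not overlap in any of these 3 genes. All 3 were called lower in A/J females, where 5.32% of all tested genes were called in either direction and 4.06% were called lower. The log2 fold changes, female over male, were -0.43 ± 0.10 for Cacna1d (SE, adjusted p = 0.00805), -0.31 ± 0.08 for Cacna1b (adjusted p = 0.015) and -0.49 ± 0.13 for Cacna1h (adjusted p = 0.0217).

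These A/J calls lay near the threshold. Over the 36 fits without 1 library the folds ranged from -0.48 to -0.38 for Cacna1d, from -0.56 to -0.43 for Cacna1h and from -0.36 to -0.27 for Cacna1b. Without A/J male replicate 1 none of the 3 was called. Cacna1h was also lost without A/J male replicate 2 or without any 1 of the A/J females, Cacna1b without A/J female replicate 2 or 3, and Cacna1d without A/J female replicate 1. In the fits on FPKM Cacna1b was lost at both pseudocounts (adjusted p = 0.147 and 0.132) and Cacna1h at a pseudocount of 0.1 (adjusted p = 0.0569), and Cacna1d was called at both. With the GC and length offsets the values were -0.29 for Cacna1d (adjusted p = 0.037), -0.30 for Cacna1h (adjusted p = 0.026) and -0.11 for Cacna1b (adjusted p = 0.28). Mitochondrial genes took 9.58%, 9.72% and 9.12% of counts in A/J females, against 8.21%, 6.61% and 8.46% in A/J males. The 8 members took 0.0765%, 0.0686% and 0.0727% of counts in A/J females, against 0.0957%, 0.0992% and 0.0932% in A/J males. The part of mitochondrial reads in the sex difference was not tested. Without 129S1/SvImJ female replicate 1 there were 7 within-strain calls, with Cacna1b (0.28), Cacna1c (0.45) and Cacna1e (0.58) higher in 129S1/SvImJ females and 4 genes lower in A/J females. The share of all tested genes called in that fit is not given here, so these calls are not read as particular to the members.

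C57BL/6J showed the same direction without a call, where 0.279% of all tested genes were called. Cacna1e had 279.8, 261 and 289.5 CPM in C57BL/6J females, against 389.6, 363 and 377 CPM in C57BL/6J males (log2 fold change -0.44 ± 0.15 SE, adjusted p = 0.21). Every C57BL/6J female lay below every C57BL/6J male in 6 of the 8 genes, all but Cacna1g and Cacna1h, as did 14% of all tested genes. Every A/J female lay below every A/J male in 6 of the 8 as well, all but Cacna1a and Cacna1i, as did 17.2% of all tested genes. In DBA/1J and DBA/2J this held for 1 gene each, Cacna1c, where it held for 4.13% and 6.67% of all tested genes, and in 129S1/SvImJ and PWD/Ph for none (7.13% and 5.56%). In no strain did every female lie above every male in any of the 8, where 7.06% of tested genes did in 129S1/SvImJ, 17.3% in A/J, 11.5% in C57BL/6J, 5.0% in DBA/1J, 7.6% in DBA/2J and 4.03% in PWD/Ph. Mitochondrial genes took 12.87%, 11.93% and 11.43% of counts in C57BL/6J females, against 10.05%, 10.81% and 10.18% in C57BL/6J males. Fitted on each strain's own 6 libraries, 5 members were called in A/J and 2 in C57BL/6J, Cacna1d at -0.25 (adjusted p = 0.045) and Cacna1e at -0.44 (adjusted p = 0.0050). Over all genes these fits called 2069 in A/J and 563 in C57BL/6J, against 1049 and 55 in the main fit.

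In the other 4 strains no alpha 1 gene was called between the sexes. Over the 6 strains together 3 of 48 member differences between the sexes were called, where 0.99% of all tested gene and strain pairs were. The share of all tested genes called was 0.102% in 129S1/SvImJ, 0.0609% in DBA/1J, 0.0508% in DBA/2J and 0.122% in PWD/Ph. The largest of these differences was in the T-type gene Cacna1g in PWD/Ph, with 62.0, 41.9 and 64.5 CPM in females, against 33.2, 49.7 and 39.5 CPM in males (log2 fold change 0.46 ± 0.14 SE, adjusted p = 0.14). Thalamus markers summed to 189, 208 and 241 CPM in PWD/Ph females, against 172, 165 and 183 CPM in PWD/Ph males, without overlap. Striatum markers summed to 247, 107 and 161 CPM in PWD/Ph females, against 95.2, 101 and 110.4 CPM in PWD/Ph males. Dentate granule markers ran the other way, also without overlap. They summed to 185, 204 and 221 CPM in PWD/Ph females, against 242, 274 and 261 CPM in PWD/Ph males. The part of any of these marker sums in the Cacna1g difference was not tested. The F test of whether the sex difference varied among strains called Cacna1d (adjusted p = 0.0288) and Cacna1b (adjusted p = 0.0404), where 1.64% of all tested genes were called. The Cacna1d call held in 22 and the Cacna1b call in 13 of the 36 fits without 1 library, and neither held with the GC and length offsets, where Cacna1h was called (adjusted p = 0.0185).

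**Figure D5:**
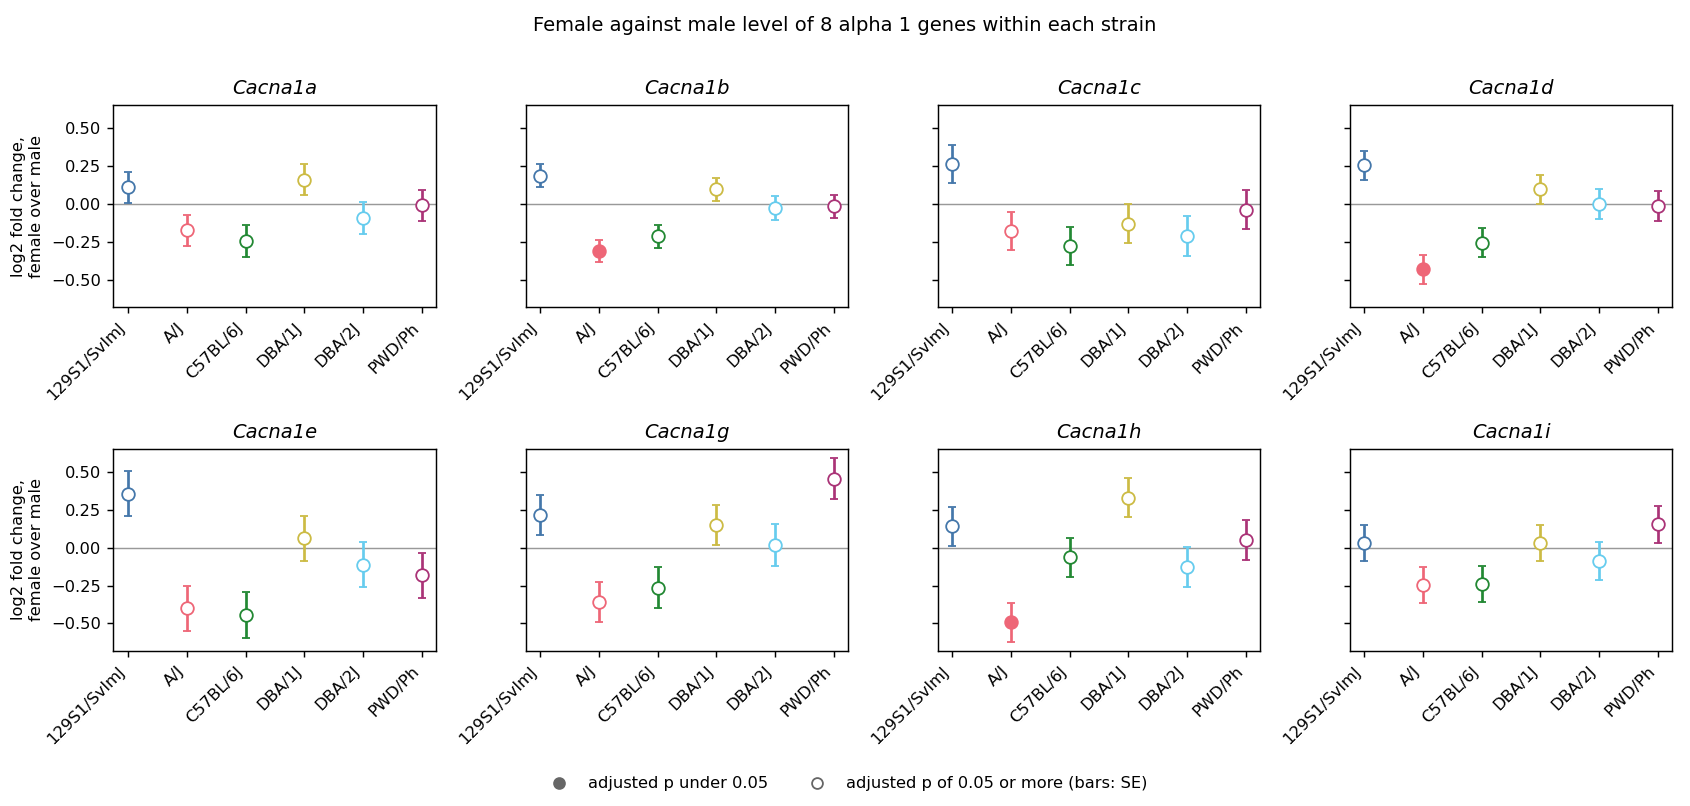
Each panel shows 1 alpha 1 gene, with the log2 fold change of females over males (y axis, bars are SE) in each strain (x axis), filled where the adjusted p is under 0.05. The filled points are Cacna1b at -0.31, Cacna1d at -0.43 and Cacna1h at -0.49 in A/J, and the C57BL/6J points lie below 0 in all 8 genes.

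The alpha 1 subunits are assembled with auxiliary subunits. For these and the partner lists, counts in the strain F test stand against the 92.0% of all tested genes called, and none is read as particular to its list. The beta subunits bind the inner face of the pore and carry it to the membrane. Cacnb3 averaged 199 CPM in 129S1/SvImJ, against 109.6 CPM in DBA/2J, a range of 1.82 times. Cacnb4 ran the other way, at 243.8 CPM in DBA/2J and 243.9 CPM in PWD/Ph, against 128 CPM in 129S1/SvImJ, a range of 1.93 times, and Cacnb1 averaged 109 CPM in DBA/1J, against 71.6 CPM in PWD/Ph. All 4 beta genes passed the strain F test, Cacnb2 with a range of 1.16 times. The alpha 2 delta subunits, which are anchored outside the cell and bind gabapentin in some members, were led by Cacna2d1, at 336 CPM in PWD/Ph, against 181 CPM in 129S1/SvImJ. All 4 passed, with Cacna2d3 at 1.19 times, Cacna2d2 at 1.29 times and the low Cacna2d4 at 2.21 times.

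The gamma genes include the TARPs, which attach to AMPA receptors. Of the 8 listed, 7 were tested and all 7 passed the strain F test, Cacng1 being too low. Cacng8 averaged 95.1 CPM in DBA/1J, against 32.7 CPM in PWD/Ph, a range of 2.98 times. Cacng6 was low, at a mean of 0.479 CPM, and Cacng2 and Cacng7 ranged over 1.39 and 1.29 times.

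Of 17 genes of the presynaptic active zone and release machinery, 16 passed the strain F test (92.0% of all tested genes). In PWD/Ph 10 were called higher and 3 lower (median log2 fold change 0.14, against -0.02 over all tested genes), where 34.4% of tested genes were called higher and 36% lower. In 129S1/SvImJ 2 were higher and 9 lower (median -0.17, against 0.01 over all tested genes), where 35.3% were higher and 32.1% lower. Pclo, which encodes the scaffold piccolo, averaged 501 CPM in PWD/Ph, against 261 CPM in 129S1/SvImJ. Cask and Rims1 had the same top and bottom strains, with ranges of 1.62 and 1.49 times, while Syt2, a calcium sensor of release, was highest in DBA/2J at 38.1 CPM and lowest in PWD/Ph at 21.1 CPM.

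All 19 listed channel regulators passed the strain F test, as did 92.0% of all tested genes. Dpysl2, whose product binds the N-type channel, averaged 773 CPM in PWD/Ph, against 381 CPM in 129S1/SvImJ, and Ppp3cb, a catalytic subunit of calcineurin, ranged over 1.8 times. Cabp1, a calmodulin-like regulator, averaged 38.3 CPM in 129S1/SvImJ, against 18.2 CPM in PWD/Ph, and Camk2b ranged over 1.62 times with the same top and bottom. Of 12 store release and calcium-activated potassium channel genes, 11 were tested and all 11 passed. In DBA/1J 8 of these 11 were called higher and none lower (median 0.25, against 0.03 over all tested genes), where 28.5% of tested genes were called higher and 24.9% lower. Ryr1 averaged 21.9 CPM in 129S1/SvImJ, against 9.5 CPM in PWD/Ph, and Kcnn1, Kcnma1 and Kcnn2 ranged over 1.92, 1.97 and 1.63 times. The values of these lists are without the GC and length offsets.

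The genes most like each member were those with the highest Pearson r of log2 CPM over the 12 group means. For Cacna1e they were Pclo (r = 0.98, and 0.85 over the deviations of 36 libraries), Kdm2a (0.98 and 0.77) and Pkib (0.98 and 0.02). For Cacna1d they were Gm13387, Ino80d and 4933427J07Rik, at 0.97 each. For Cacna1h they were Pitpnm2 (0.96 and 0.85), Rpap1 (0.96 and 0.52) and Vipr1 (0.95 and 0.43). The best matches of the other members reached 0.92 or 0.93 for Cacna1a (Slc45a4), Cacna1b (Sfxn2) and Cacna1c (Igf1r), 0.91 for Cacna1i (L1cam) and 0.89 for Cacna1g (Xpo6). Pkib matched Cacna1e between groups but not within them, while Pclo matched it in both.

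Genes next to the members were described in the same way. The nearest tested genes of Cacna1e on chromosome 1 were Zfp648 (r = -0.73 over 12 group means) and Ier5 (r = -0.27), 185 and 212 kb away. Those of Cacna1d on chromosome 14 were Il17rb (r = -0.19) and Tkt (r = -0.70). The overlapping genes Dcp1a and Chdh had r = 0.75 and r = 0.34 with Cacna1d. Gm16183, an antisense gene that overlaps Cacna1a, had r = 0.86 with it and was also among the 3 genes most like Cacna1b, which lies on another chromosome. Reads of Gm16183 and Cacna1a cannot be told apart where they overlap.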

How the data were processed

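RNA-seq of hippocampus from 36 mice, 1 animal per library, was analysed. The authors deposited raw counts per gene and FPKM, per the file headers. Per the submitters' processing notes, Cufflinks 2.1.1, DESeq2 1.8.1, TopHat2 2.0.13, Trimmomatic 0.32 and SAMtools were used with GRCm38/mm10. The sources used here do not give the read counter, its strand setting, the annotation release or which libraries shared a lane. The spike-in mix differed between the sexes and was not used.

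Counts were tested with edgeR 4.0.16 (R 4.3.3), with filterByExpr (minimum count 10, minimum total 15), TMM scaling, 12 groups of strain and sex, quasi-likelihood F tests and Benjamini-Hochberg adjustment over the 19702 of 37315 genes tested. The common dispersion was 0.0132. Depth ranged from 6493512 to 35232515 counts, so low genes are the least precise. Calls use an adjusted p under 0.05. Alternatives used DESeq2 1.42.0, limma 3.58.1 on log2(FPKM + 0.1) and log2(FPKM + 1), other filters, a replicate block, loess offsets (span 0.5) on transcript GC content and length for the 19147 genes with both, and leaving out libraries or strains. The scripts were tested on simulated data. Coordinates are 1-based GRCm38 (GENCODE M21).

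The 8 members, the gene lists and the tests were chosen with earlier results of these data known. Named genes were all 8 members, up to 4 genes of each subunit or partner list with the smallest p in the strain F test, the 3 genes of at least 1 CPM with the highest r to each member, and the nearest tested genes on each side, of which those of Cacna1e and Cacna1d are given and the others are not reported here.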

Additional observations from a re-analysis of the deposited data

Results flagged for a closer look

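In 48 sets of 6 libraries (8 genes in 6 strains), the gap between the most extreme library and its nearest neighbour was divided by the range and compared with the 95% critical value of Dixon's test for 6 samples. Chance flags about 1 in 20 sets, and 2 sets were flagged. Cacna1c in DBA/1J female replicate 1 was the lowest of its strain at 55.6 CPM, with a ratio of 0.939. Cacna1h in 129S1/SvImJ female replicate 2 was the highest of its strain at 135 CPM, with a ratio of 0.829. That library was also the highest of its strain in every other member but Cacna1i. The 8 members took 0.111% of its counts, against 0.0717% to 0.0893% in the other 129S1/SvImJ libraries.

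The female over male difference varied among strains in Cacna1b (edgeR interaction F test, adjusted p = 0.0404) and in Cacna1d (adjusted p = 0.0288). In both genes the A/J values were negative, at -0.31 and -0.43 on the log2 scale, and those of 129S1/SvImJ positive, at 0.19 and 0.26.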

How the results depend on the processing

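All 8 genes differed among strains in every setting without 1 library. Leaving out strain C57BL/6J lost Cacna1b (adjusted p = 0.0518), and leaving out DBA/1J lost Cacna1c (0.325) and Cacna1i (0.229). Without 1 library, calls against the other 5 strains ranged from 21 to 27, between pairs from 55 to 71, within-strain sex calls from 0 to 7 and interaction calls from 0 to 5, against 25, 61, 3 and 2. Averaged over strains, sex calls stayed at 0 without any 1 library and reached 2 without strain 129S1/SvImJ, where 792 of all genes were called. Fitting each strain's own 6 libraries gave 7 within-strain sex calls, where 2069 of all genes were called in A/J and 563 in C57BL/6J.

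Interaction calls numbered 4 with no filter on low counts or without strain PWD/Ph and 5 with DESeq2. They numbered 1 with limma on FPKM at either pseudocount, with the GC and length offsets, alone or with the block, and without strain DBA/2J. They numbered 0 without the 3 shallowest DBA/2J libraries, without A/J and without C57BL/6J. Over all genes, interaction calls ranged from 5 without strain A/J to 1331 with DESeq2 (main 323). The interaction counts of the members are therefore not read as particular to them. Sex calls over all genes ranged from 13 without strain C57BL/6J to 792 without strain 129S1/SvImJ (main 47). Within strains the sex calls ranged from 622 to 2069 in A/J (1049), 8 to 64 in 129S1/SvImJ (20) and 33 to 563 in C57BL/6J (55). They ranged from 6 to 25 in DBA/1J (12), 6 to 182 in DBA/2J (10) and 6 to 272 in PWD/Ph (24).

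With the GC and length offsets, alone or with the block, these values changed sign: Cacna1a in 129S1/SvImJ (-0.027) and PWD/Ph (0.26), Cacna1g in DBA/1J (-0.056) and PWD/Ph (0.21), and Cacna1h (-0.067) and Cacna1i (-0.12) in DBA/1J. In the fits on FPKM Cacna1i in A/J turned to 0.055 and 0.046. The offsets moved the share of all calls that were higher to 40.7% in C57BL/6J, 35.8% in DBA/1J, 62.9% in DBA/2J and 59.5% in PWD/Ph, and log2(FPKM + 0.1) moved it to 65.3% in 129S1/SvImJ, 81.4% in A/J, 64.0% in DBA/1J, 19.1% in DBA/2J and 30.6% in PWD/Ph. With log2(FPKM + 0.1) the median of all genes shifted to 0.11 in 129S1/SvImJ, 0.12 in A/J, -0.17 in DBA/2J and -0.18 in PWD/Ph. The cause was not tested.

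Replicate numbers did not pair the samples: deviations of 198 same-numbered pairs correlated from -0.322 to 0.343, and 21 exceeded 0.1. With the replicate block the calls were 8 among strains, 25 against the others, 62 between pairs, 3 within-strain sex calls and 3 interaction calls.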
